A study of Homo sapiens with 12 samples.

Results

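RNA polymerase III (Pol III) and the factors that bring it to its promoters were followed through their mRNAs in HEK293T cells, an established human embryonic kidney line, after depletion of snaR-A. The set was taken by gene symbol and held 34 genes out of 63541 gene IDs. All 34 were found in the table of counts, and 33 could be tested. Cells had been transfected for 48 h with 12.5 nM of a scramble control siRNA or of 1 of 3 siRNAs against snaR-A, called si-snaR-A#1, #2 and #3, and each group held 3 biological replicates handled on the same day. Ribosomal RNA had been removed and poly(A)+ RNA selected, so the libraries report on the mRNAs of the machinery and not on most of what it transcribes. All groups were the same cell line, so no comparison is between cell types. The 3 siRNAs were compared with the same 3 scramble libraries, so their comparisons are not independent of each other. All 3 were designed against sequences near the 3′ end of snaR-A and, as the study lists them, overlap in sequence.

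Pol III makes short untranslated RNAs, among them 5S rRNA, the tRNAs, U6 snRNA, 7SK and snaR-A itself. Its enzyme shares subunits with Pol I and Pol II and adds its own, and it reaches a gene through TFIIIB, which is placed by TFIIIA and TFIIIC at the 5S rRNA genes, by TFIIIC alone at tRNA genes, and by SNAPc upstream of genes such as U6. MAF1 represses the enzyme when nutrients or growth signals are withdrawn.

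The targeted RNA could not be read here: 0 gene IDs of the table carried a symbol that starts with SNAR, so its depletion could not be checked in these libraries. The RT-qPCR that the study ran for this is not analysed here. Library totals lay between 120.4 and 180.1 M counts. Mitochondrial genes took between 3.66% and 6.05% of a library. Of 9 markers of epithelial cells and of the embryonic kidney line, 7 were above 1 CPM (counts per 1 M counts, scaled between libraries) on average, while KRT19 and PAX8 stayed at or below 0.0221 and 0.0990 CPM. The summed level of the 9 was between 108.0 and 122.4 CPM in the si-snaR-A#1 libraries and between 149.6 and 161.7 CPM in the other 9 libraries, and its part in the results was not tested. The defining markers of blood, endothelium, liver and heart PTPRC, CD3E, PECAM1, CDH5, ALB and MYH6 did not pass 0.134 CPM in any library. Among markers of other cell types, COL1A1 and COL3A1 were above 1 CPM on average. The epithelial marker CDH1 fell by 0.49 in the mean of the siRNAs, COL1A1 fell by 0.47 and COL3A1 rose by 0.55 in that mean, EYA1 rose by 0.27, and each was called, EYA1 not without scramble replicate 2 (adjusted p = 0.083).

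With si-snaR-A#1, 20 of the 33 members tested were called, meaning an adjusted p under 0.05 in edgeR's quasi-likelihood test with Benjamini-Hochberg adjustment over all 21999 genes tested. This was 60.6% of the members beside 45.2% of all genes. Of these, 12 members were higher than in scramble (21.9% of all genes were) and 8 were lower (23.3% of all genes were). With si-snaR-A#2, 12 members were called, 9 higher and 3 lower, beside 25.8% of all genes, with 13.7% higher and 12.1% lower as shares of all genes. For si-snaR-A#3 the test called 14 members, 10 higher and 4 lower, beside 29.4% of all genes, 16.5% higher and 13.0% lower. In the mean of the 3 siRNAs 10 members were called, 7 higher and 3 lower, against 32.2% of all genes, 15.6% higher and 16.6% lower. All genes tested include genes at low counts, while the lowest value of any member tested was 5.16 CPM. A fit filtered at a mean of 1 CPM tested 14538 genes. It called 9037, 5855 and 6487 of them with the 3 siRNAs in turn and 7041 in their mean. Each is a larger share than that of the members called above, so no excess of calls among the members is read from these shares. The split depended on the scaling. Under upper quartile scaling, 6 members were higher and 5 lower with si-snaR-A#2, 8 were higher and 9 lower with si-snaR-A#3, and 5 were higher and 7 lower in the mean of the siRNAs. The split over all genes shifted the same way in these 3 comparisons, with 11.1%, 13.1% and 13.9% of all genes higher and 16.3%, 17.6% and 20.6% lower in turn. With si-snaR-A#1 this scaling again gave 12 members higher and 8 lower, beside 22.9% and 23.3% of all genes. In bulk RNA, fewer cells that express a gene and less of its RNA per cell cannot be told apart.

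Most of these differences were small. The median member differed from scramble by 0.20 on the log2 scale in absolute size with si-snaR-A#1, by 0.11 with si-snaR-A#2 and by 0.12 with si-snaR-A#3. A single member, SNAPC3 with si-snaR-A#1, differed by more than 2-fold. The signed median over the members was 0.08, 0.07 and 0.06 with the 3 siRNAs in turn, beside -0.02, -0.03 and -0.03 over all genes tested. GTF3A, GTF3C6 and MAF1 were called higher with all 3 siRNAs, which 5.16% of all genes were, and 0 members were called lower with all 3, which 2.84% of all genes were. The call of GTF3A with si-snaR-A#2 was lost under 10 of the alternative settings, given with its values. Another 5 members were called with none of the siRNAs, as were 40.2% of all genes.

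**Figure D1:**
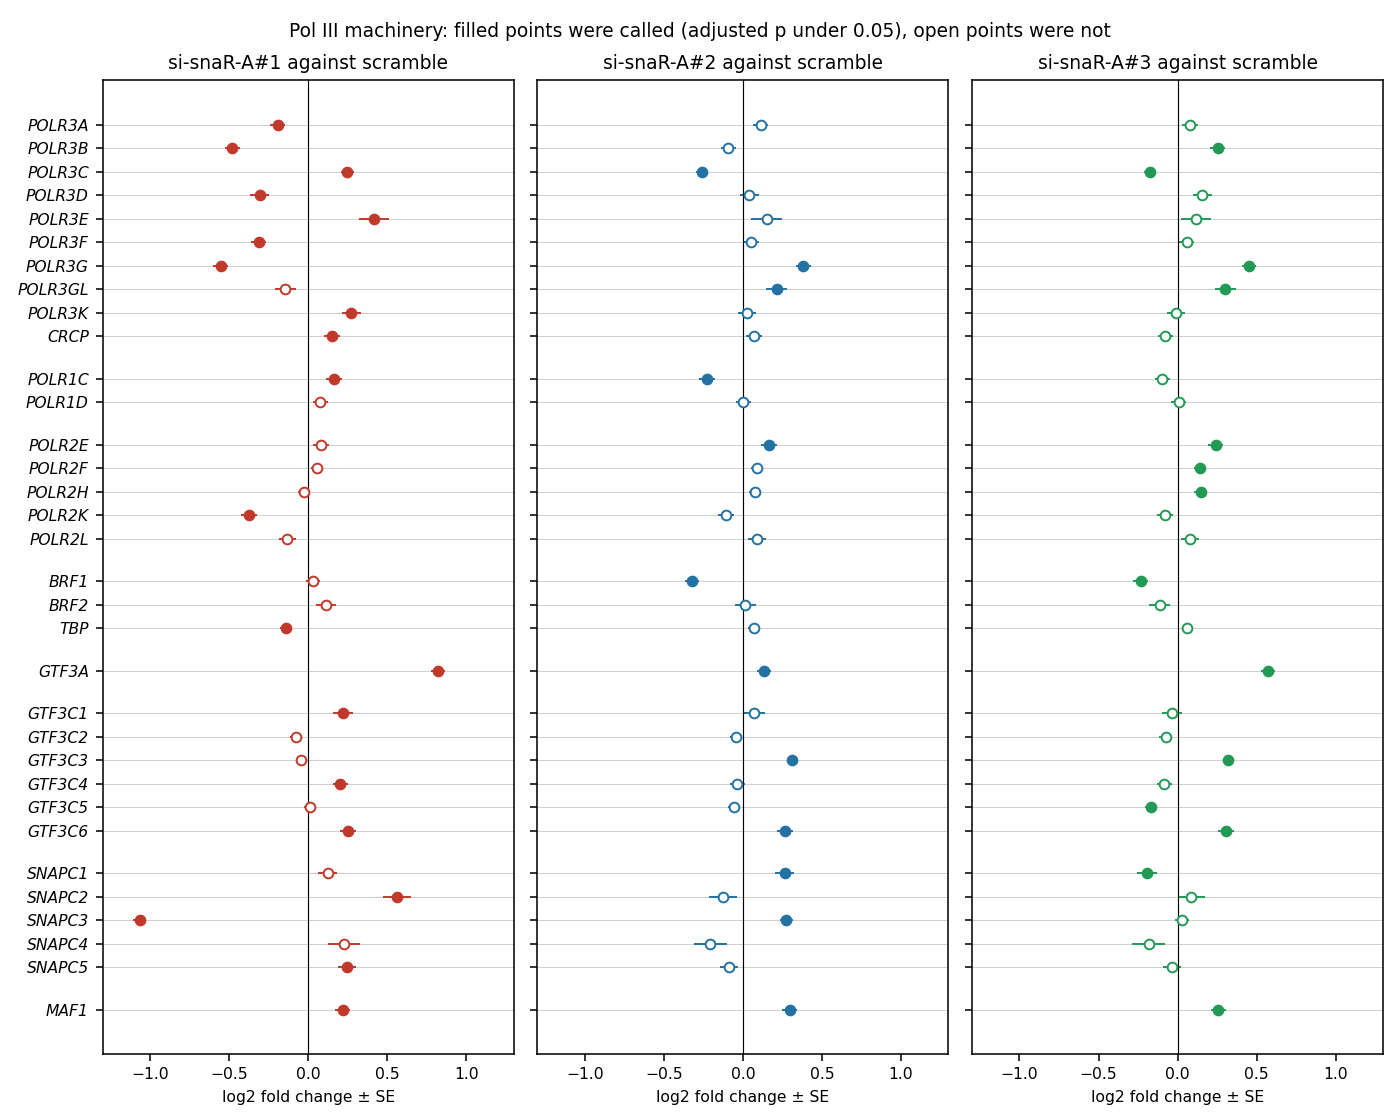
Log2 fold change against scramble for the 33 Pol III machinery genes tested, with 1 panel per siRNA and genes grouped by role from enzyme subunits at the top to MAF1 at the bottom. Points are estimates from the fit over all 12 libraries, horizontal lines are 1 standard error either way, and filled points were called. The si-snaR-A#1 panel holds the largest differences, with SNAPC3 at -1.07 and GTF3A at 0.82.

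The siRNAs differed from each other in this set as well. Between si-snaR-A#1 and #2, 22 members were called (46.7% of all genes were), and between si-snaR-A#1 and #3, 28 members were called (48.6% of all genes were). Between si-snaR-A#2 and #3, 4 members were called, POLR3B, GTF3A, SNAPC1 and SNAPC3, beside 15.6% of all genes. The fit filtered at a mean of 1 CPM called 9218, 9406 and 3911 of its 14538 genes in these comparisons in turn. In all, 16 members were called with si-snaR-A#1 against scramble and also against both other siRNAs, as were 28.8% of all genes.

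**Figure D2:**
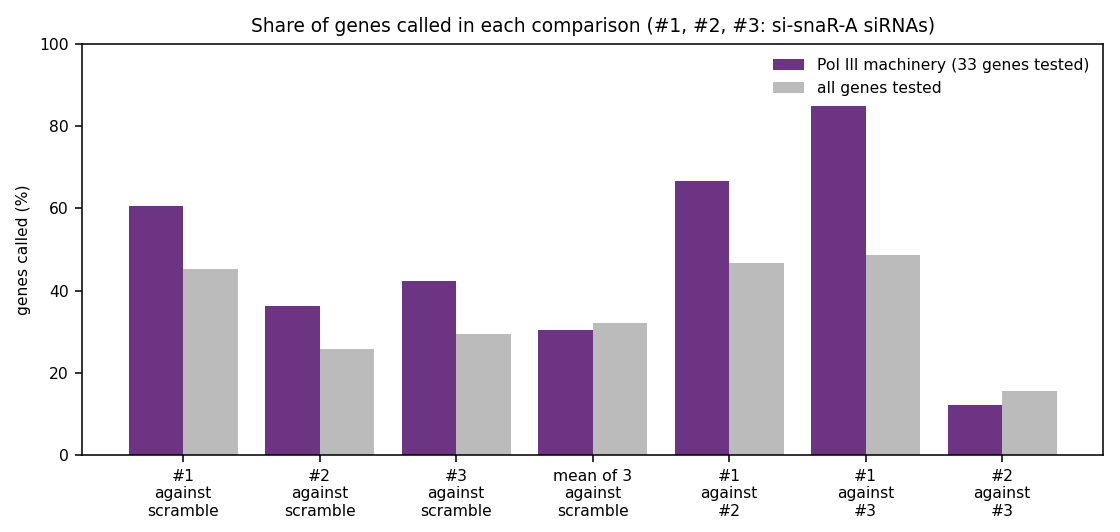
Percent of genes called at an adjusted p under 0.05 in each of the 7 comparisons, for the 33 Pol III machinery genes tested (dark bars) and for all 21999 genes tested (light bars). The members' share ran from 12.1% between si-snaR-A#2 and #3 to 84.8% between si-snaR-A#1 and #3. The light bars include genes at lower counts than any member tested.

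The promoters of 3 members are shown because these genes led the changes described below, GTF3A and GTF3C6 as members higher with every siRNA and SNAPC3 as the member that fell furthest. The sequences are RefSeq's on GRCh38.p14, from 250 bases before to 50 bases after the annotated start, all on the plus strand of the chromosome. Capitals mark matches on either strand to any of 5 short motifs, CACGTG (the E-box that MYC and MAX bind), GCATGCG (the core of NRF1 sites), CCGGAAG (ETS factors), CCAAT and TATAAA. In these windows no motif overlaps another one, but the NRF1 core partly repeats itself on the opposite strand. The third member called higher with all 3 siRNAs, MAF1, had no entry, and neither did POLR3G.

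GTF3A, chr13:27424369-27424668: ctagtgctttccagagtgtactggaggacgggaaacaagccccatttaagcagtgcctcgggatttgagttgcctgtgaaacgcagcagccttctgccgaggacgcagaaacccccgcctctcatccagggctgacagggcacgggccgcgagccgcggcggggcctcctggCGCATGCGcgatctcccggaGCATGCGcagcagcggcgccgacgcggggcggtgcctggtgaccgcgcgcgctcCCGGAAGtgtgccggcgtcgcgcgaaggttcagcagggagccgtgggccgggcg

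GTF3C6, chr6:110958456-110958755: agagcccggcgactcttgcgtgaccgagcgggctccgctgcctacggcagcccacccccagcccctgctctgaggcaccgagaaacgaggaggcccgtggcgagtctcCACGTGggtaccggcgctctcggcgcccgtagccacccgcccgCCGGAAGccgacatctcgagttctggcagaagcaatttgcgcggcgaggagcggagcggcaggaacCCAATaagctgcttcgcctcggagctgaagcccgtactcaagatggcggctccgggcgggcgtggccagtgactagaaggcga

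SNAPC3, chr9:15422626-15422925: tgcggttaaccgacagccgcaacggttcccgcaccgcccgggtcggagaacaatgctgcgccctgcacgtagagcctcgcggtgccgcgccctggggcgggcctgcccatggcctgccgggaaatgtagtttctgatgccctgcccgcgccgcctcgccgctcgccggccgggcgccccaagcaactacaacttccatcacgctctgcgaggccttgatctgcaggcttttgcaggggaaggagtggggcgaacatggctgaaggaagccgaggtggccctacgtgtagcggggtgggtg

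The GTF3A window held the NRF1 core 77 and 58 bases before the start (the former also read on the other strand from 78 bases before it) and the ETS motif 4 bases before the start, and the GTF3C6 window held the E-box, the ETS motif and the CCAAT box 142, 99 and 33 bases before it. None of the 5 motifs was written in the SNAPC3 window, although its GC content of 68.0% was close to the 69.3% and 68.7% of the others. RefSeq promoters were found for 27 of the 34 members. The NRF1 core was in the promoters of 5 of the 27, POLR3B, POLR2F, POLR2H, GTF3A and GTF3C1, and in those of 4.74% of all 27305 genes with an entry. The ETS motif was in 11 of the 27 beside 12.2% of all genes, and the E-box was in 6 of the 27 beside 8.77%. The CCAAT box was in 10 of the 27 beside 39.7%, and TATAAA was in 1, GTF3C3, beside 13.99%. These shares describe letters in a window and not binding.

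Among the 10 subunits that belong to Pol III only, 9 were called with si-snaR-A#1, 4 higher and 5 lower, beside 45.2% of all genes. With si-snaR-A#2 3 were called, 2 higher and 1 lower, while with si-snaR-A#3 4 were called, 3 higher and 1 lower, which is near the 25.8% and 29.4% of all genes called. POLR3G, with POLR3C and POLR3F, forms the subcomplex that opens promoter DNA, and it is the form of this subunit known for high levels in stem cells and tumours. Its gene lies on chromosome 5 (GRCh38, 90471748 to 90514557, plus strand). POLR3G was at 57.3, 60.1 and 60.8 CPM in the scramble libraries, at 41.9, 41.4 and 38.2 CPM with si-snaR-A#1, at 78.6, 73.6 and 80.2 CPM with si-snaR-A#2 and at 79.4, 81.4 and 82.8 CPM with si-snaR-A#3. Every si-snaR-A#1 library was below all scramble libraries and every library of the other siRNAs was above them. On the log2 scale POLR3G fell by 0.55 ± 0.05 (SE, adjusted p = 8.2e-07) with si-snaR-A#1 and rose by 0.38 ± 0.05 (adjusted p = 5.7e-05) and 0.45 ± 0.05 (adjusted p = 1.3e-05) with the other two. The difference between si-snaR-A#1 and #3 was -1.005 ± 0.05 (adjusted p = 4.1e-09).

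Its paralogue POLR3GL takes the same place in the enzyme and is the form found in most tissues. POLR3GL was at 26.7, 29.3 and 30.1 CPM in scramble, at 25.9, 27.9 and 24.0 CPM with si-snaR-A#1, at 32.0, 35.2 and 32.7 CPM with si-snaR-A#2 and at 33.2, 36.7 and 36.1 CPM with si-snaR-A#3. The si-snaR-A#1 libraries overlapped the scramble libraries, whereas all 6 libraries of the other siRNAs lay above them. The log2 fold changes were -0.14 ± 0.07 (adjusted p = 0.095), 0.22 ± 0.07 (adjusted p = 0.030) and 0.30 ± 0.07 (adjusted p = 0.0042) with the 3 siRNAs in turn. The call with si-snaR-A#2 was lost under upper quartile scaling (adjusted p = 0.057) and without scramble replicate 1 (0.12), scramble replicate 2 (0.056), si-snaR-A#2 replicate 2 (0.13) or si-snaR-A#2 replicate 3 (0.058). With si-snaR-A#1 POLR3GL was called without scramble replicate 1 (adjusted p = 0.040) or without si-snaR-A#1 replicate 2 (0.044).

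Within a library, the ratio of POLR3G to POLR3GL does not depend on how libraries are scaled. The log2 ratio of counts was 1.05 ± 0.05 in scramble (SD, n = 3), 0.64 ± 0.07 in the si-snaR-A#1 libraries, 1.22 ± 0.13 in those of #2 and 1.20 ± 0.06 in those of #3. The 3 si-snaR-A#1 libraries, at 0.69, 0.57 and 0.67, lay below every other library, the lowest of which was a scramble library at 1.01. Over all 9 siRNA libraries the mean differed from scramble by -0.03 (exact permutation test, 2-sided, p = 0.87), since the siRNAs moved in opposite directions. For a single siRNA, 3 libraries against 3 cannot give a p under 0.1 in this test, which is what both si-snaR-A#1 and #3 gave, and si-snaR-A#2 gave 0.2.

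**Figure D3:**
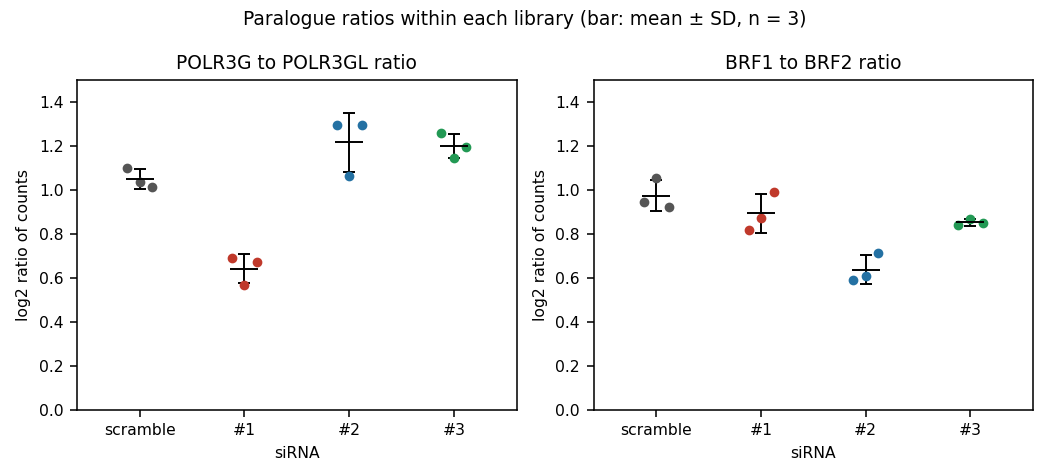
Log2 ratio of estimated counts within each library for POLR3G to POLR3GL (left) and BRF1 to BRF2 (right), by group. Points are libraries and bars are the mean ± SD of 3. On the left the si-snaR-A#1 libraries, between 0.57 and 0.69, sit below all others, and on the right the si-snaR-A#2 libraries, between 0.59 and 0.71, do.

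POLR3B is the second largest subunit and forms the catalytic site together with POLR3A. POLR3B was at 42.1, 45.9 and 43.6 CPM in scramble, at 33.5, 30.8 and 30.0 CPM with si-snaR-A#1, at 41.2, 40.6 and 41.5 CPM with si-snaR-A#2 and at 54.0, 51.6 and 51.2 CPM with si-snaR-A#3. The si-snaR-A#1 and #2 libraries were below all scramble libraries and the si-snaR-A#3 libraries above them. It fell by 0.48 ± 0.05 (adjusted p = 3.7e-06) with si-snaR-A#1 and rose by 0.25 ± 0.05 (adjusted p = 0.0014) with si-snaR-A#3, while with si-snaR-A#2 its log2 fold change was -0.09 ± 0.05 (adjusted p = 0.18). Under upper quartile scaling the last was called as well, at -0.14 (adjusted p = 0.028).

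POLR3A, the largest subunit, fell by 0.19 with si-snaR-A#1 (adjusted p = 0.0051) and was not called with the other siRNAs. POLR3C, the partner of POLR3F and POLR3G in the initiation subcomplex, went the other way from POLR3G with each siRNA. It was 0.25 higher with si-snaR-A#1, 0.26 lower with si-snaR-A#2 and 0.17 lower with si-snaR-A#3 on the log2 scale, and each was called (adjusted p = 0.00022, 0.00043 and 0.0054). POLR3F fell by 0.31 with si-snaR-A#1 (adjusted p = 0.00017), and its log2 fold changes of 0.05 and 0.06 with the other siRNAs were not called.

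POLR3D and POLR3E pair in a dimer that serves initiation and termination, and with si-snaR-A#1 their mRNAs moved apart. POLR3D fell by 0.31 (adjusted p = 0.00087) and POLR3E rose by 0.42 ± 0.10 (adjusted p = 0.0031), and neither was called with another siRNA alone. POLR3E had the widest spread among scramble libraries of these 10 genes relative to its level, with 55.5 CPM in replicate 1 beside 42.7 and 41.9 CPM. It was the single subunit of this group called in the mean of the siRNAs, at 0.23 (adjusted p = 0.043), a call that was lost under upper quartile scaling and without any 1 library other than scramble replicate 1, si-snaR-A#1 replicate 3, si-snaR-A#2 replicate 1 or si-snaR-A#3 replicate 3, with adjusted p up to 0.21. POLR3K, which serves RNA cleavage and termination, rose by 0.27 with si-snaR-A#1 (adjusted p = 0.0017). CRCP, a subunit of the stalk, rose by 0.15 with si-snaR-A#1 (adjusted p = 0.023), and this call was lost without scramble replicate 2, scramble replicate 3 or si-snaR-A#1 replicate 1, with adjusted p up to 0.10.

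**Figure D4:**
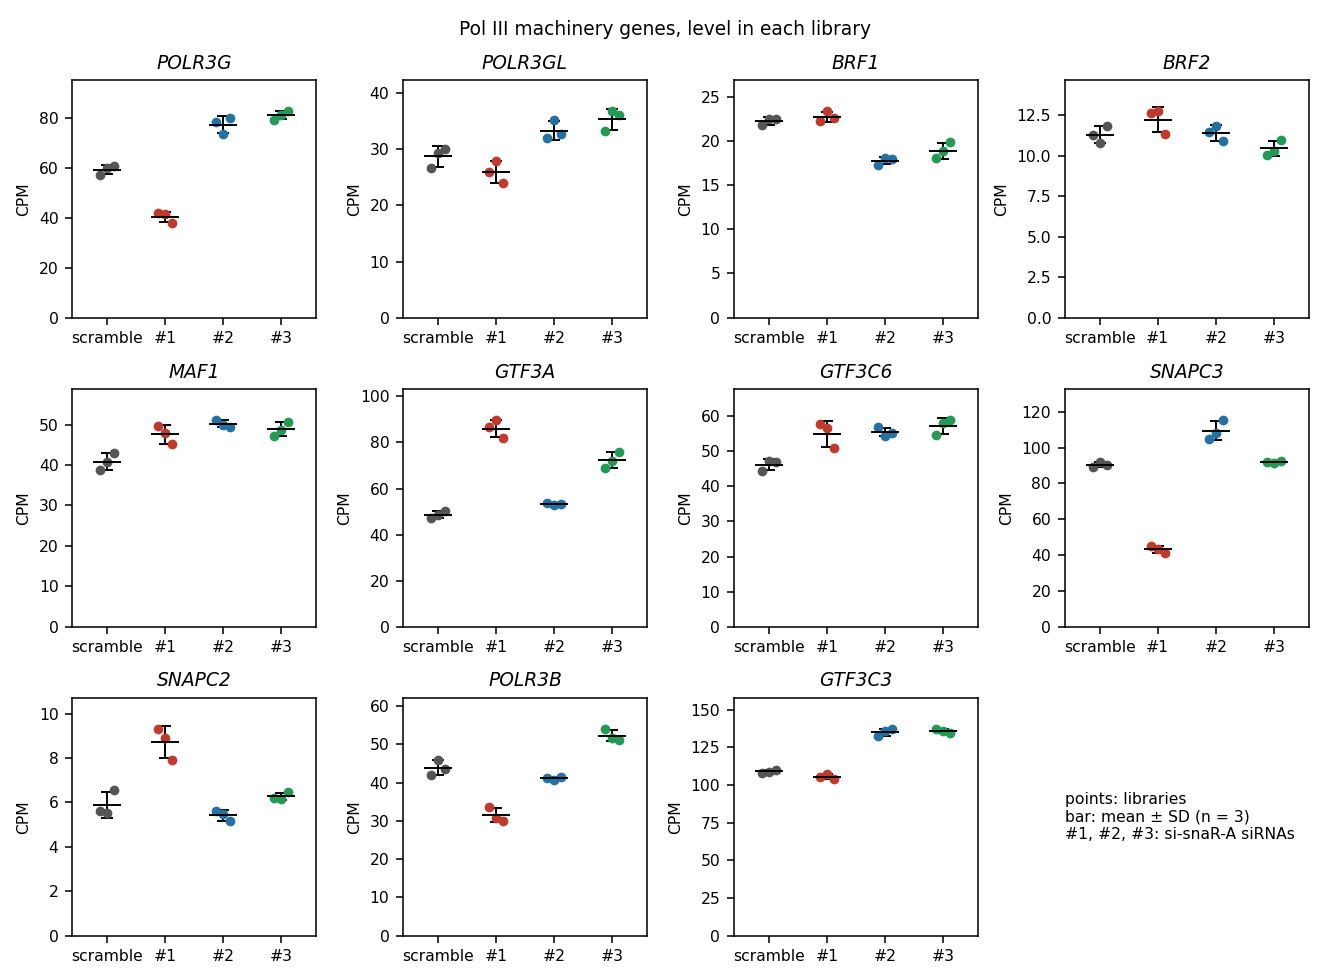
Level in CPM in each of the 12 libraries for the 11 members described library by library, each panel with its own axis from 0. Points are libraries and bars the mean ± SD of 3 in the 4 groups. The si-snaR-A#1 points for SNAPC3, between 41.2 and 45.2 CPM, lie far below those of the other groups.

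Of the 7 subunits shared with other polymerases, 2, 2 and 3 were called with the 3 siRNAs in turn, beside 45.2%, 25.8% and 29.4% of all genes. POLR1C and POLR1D pair in the assembly platform that Pol I and Pol III share. POLR1C was 0.17 higher with si-snaR-A#1 (adjusted p = 0.016) and 0.23 lower with si-snaR-A#2 (adjusted p = 0.0052), the first of which was lost without scramble replicate 1 (adjusted p = 0.056). Of the merged exons of POLR1C, 6.32% overlap XPO5 on the opposite strand, which was at 532% of the level of POLR1C. Whether the counting used strand is not stated, and the part of this overlap in the POLR1C values was not tested. POLR1D was not called in any comparison, with log2 fold changes between 0.00 and 0.08 against scramble. Of the 5 subunits that all the polymerases share, POLR2K fell by 0.37 with si-snaR-A#1 (adjusted p = 7.0e-05), and all 9 siRNA libraries were below all scramble libraries. POLR2E rose by 0.17 with si-snaR-A#2 (adjusted p = 0.026) and by 0.24 with si-snaR-A#3 (adjusted p = 0.0027), and the former was lost under upper quartile scaling and without any of 4 libraries (both scramble replicates 1 and 2, and si-snaR-A#2 replicates 2 and 3, in turn), with adjusted p up to 0.10. POLR2F and POLR2H rose by 0.14 and 0.15 with si-snaR-A#3 (adjusted p = 0.013 for each), and both calls were lost under upper quartile scaling and without 1 scramble library, replicate 1 for POLR2F (adjusted p = 0.070) and replicate 2 for POLR2H (adjusted p = 0.063). POLR2L was not called against scramble.

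TFIIIB is the factor that holds Pol III at the start site. BRF1 is its subunit at 5S rRNA and tRNA genes, and BRF2 takes its place at U6 and 7SK. BRF1 was at 21.7, 22.5 and 22.4 CPM in scramble, at 22.3, 23.3 and 22.6 CPM with si-snaR-A#1, at 17.3, 18.1 and 17.9 CPM with si-snaR-A#2 and at 18.0, 18.8 and 19.8 CPM with si-snaR-A#3. The libraries of si-snaR-A#2 and #3 were all below the scramble libraries, and those of si-snaR-A#1 overlapped them. BRF1 fell by 0.32 ± 0.04 (adjusted p = 0.00019) and 0.23 ± 0.04 (adjusted p = 0.0017) with si-snaR-A#2 and #3, and stood at 0.03 ± 0.04 (adjusted p = 0.60) with si-snaR-A#1. The test between si-snaR-A#1 and #2 gave a difference of 0.36 ± 0.04 (adjusted p = 3.0e-05).

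BRF2 was at 11.3, 10.8 and 11.8 CPM in scramble, at 12.6, 12.8 and 11.3 CPM with si-snaR-A#1, at 11.5, 11.9 and 10.9 CPM with si-snaR-A#2 and at 10.1, 10.3 and 11.0 CPM with si-snaR-A#3. All groups overlapped scramble and none was called against it, with log2 fold changes of 0.11, 0.01 and -0.11, while si-snaR-A#1 was 0.23 ± 0.07 above si-snaR-A#3 (adjusted p = 0.012). Of the merged exons of BRF2, 60.0% overlap ADGRA2 on the opposite strand, which was at 341% of the level of BRF2, and whether the counting used strand is not stated, so the BRF2 values are uncertain.

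The log2 ratio of BRF1 to BRF2 was 0.97 ± 0.07 in scramble (SD, n = 3), 0.89 ± 0.09 in the si-snaR-A#1 libraries, 0.64 ± 0.07 in those of #2 and 0.85 ± 0.01 in those of #3. The si-snaR-A#2 libraries, at 0.59, 0.61 and 0.71, were below all scramble libraries, at 0.94, 1.06 and 0.92. Over all 9 siRNA libraries the ratio was 0.18 lower than in scramble (exact permutation test, 2-sided, p = 0.041, and 0.082 after Benjamini-Hochberg adjustment over both ratios), so the difference did not pass after adjustment. This test takes libraries of 3 different siRNAs as replicates of 1 condition.

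TBP, which is common to the initiation factors of all the polymerases, fell by 0.14 with si-snaR-A#1 (adjusted p = 0.0062) and was not called with the others. BDP1, the remaining subunit of TFIIIB, was listed at 0 in all 12 libraries and could not be tested. Other genes that every cell uses were also listed at or near 0, LSM2 in every library and POLR2A at a mean of 1.07 CPM in scramble, so the zero cannot be read as a level.

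GTF3A encodes TFIIIA, the zinc finger protein that binds the 5S rRNA gene and 5S rRNA itself. Its gene lies on chromosome 13 (GRCh38, 27424619 to 27435823), its first base inside the promoter window shown above. GTF3A was at 47.3, 48.4 and 50.2 CPM in scramble, at 86.5, 89.7 and 82.0 CPM with si-snaR-A#1, at 53.7, 52.8 and 53.5 CPM with si-snaR-A#2 and at 68.9, 72.1 and 75.8 CPM with si-snaR-A#3. All 9 siRNA libraries were above all scramble libraries, the si-snaR-A#1 libraries furthest and the si-snaR-A#2 libraries least. It rose by 0.82 ± 0.04 (adjusted p = 1.9e-08), 0.13 ± 0.04 (adjusted p = 0.042) and 0.57 ± 0.04 (adjusted p = 1.5e-06) with the 3 siRNAs in turn. The differences between siRNAs were called too, with si-snaR-A#1 0.69 above si-snaR-A#2 (adjusted p = 8.5e-08) and 0.25 above si-snaR-A#3 (adjusted p = 0.00039). The call with si-snaR-A#2 did not hold under upper quartile scaling (log2 fold change 0.09, adjusted p = 0.12), with no filter on low counts (0.069), with a replicate block (0.060), or without any 1 of scramble replicates 1 and 2, si-snaR-A#1 replicate 1, the 3 si-snaR-A#2 libraries and si-snaR-A#3 replicate 2, for which adjusted p ran from 0.054 to 0.14.

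TFIIIC recognises the internal promoter of tRNA genes, and its 6 subunits were all measured. With si-snaR-A#1 3 of them were called, all higher, with si-snaR-A#2 2, both higher, while with si-snaR-A#3 2 were higher and 1 lower. Of all genes, 45.2%, 25.8% and 29.4% were called with the 3 siRNAs in turn, and 21.9%, 13.7% and 16.5% were called higher. GTF3C6, the smallest subunit, was at 44.5, 47.2 and 47.0 CPM in scramble, at 57.7, 56.7 and 50.8 CPM with si-snaR-A#1, at 56.9, 54.5 and 55.1 CPM with si-snaR-A#2 and at 54.5, 58.0 and 58.9 CPM with si-snaR-A#3. All siRNA libraries were above all scramble libraries, and the siRNA groups overlapped each other. GTF3C6 rose by 0.25 ± 0.05 (adjusted p = 0.0012), 0.26 ± 0.05 (adjusted p = 0.0020) and 0.31 ± 0.05 (adjusted p = 0.00060), and no pair of siRNAs was called, with differences of -0.01, -0.05 and -0.04 (SE 0.05 each, adjusted p between 0.42 and 0.87).

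GTF3C3, a subunit of the part of TFIIIC that faces TFIIIB, was at 108.1, 108.6 and 110.2 CPM in scramble, at 105.2, 107.1 and 104.1 CPM with si-snaR-A#1, at 132.5, 136.0 and 136.8 CPM with si-snaR-A#2 and at 137.1, 135.6 and 134.5 CPM with si-snaR-A#3. The libraries of si-snaR-A#2 and #3 lay well above scramble, and those of si-snaR-A#1 just below it. It rose by 0.31 ± 0.03 (adjusted p = 1.3e-05) with si-snaR-A#2 and by 0.32 ± 0.03 (adjusted p = 8.1e-06) with si-snaR-A#3, while with si-snaR-A#1 the log2 fold change was -0.05 ± 0.03 (adjusted p = 0.24). GTF3C1, the largest subunit and the one that binds the B box, rose by 0.22 with si-snaR-A#1 (adjusted p = 0.013), a call lost without scramble replicate 2 or without scramble replicate 3, with adjusted p up to 0.055. GTF3C4 rose by 0.20 with si-snaR-A#1 (adjusted p = 0.0036), and GTF3C5 fell by 0.17 with si-snaR-A#3 (adjusted p = 0.0061). GTF3C2 was not called in any comparison.

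SNAPc binds the element upstream of U6, 7SK and the Pol II snRNA genes. SNAPC3, one of the subunits of its core, gave the largest fall among the members. Its gene lies on chromosome 9 (GRCh38, 15422734 to 15465953 in GENCODE, plus strand). SNAPC3 was at 89.0, 91.9 and 90.2 CPM in scramble, at 45.2, 43.2 and 41.2 CPM with si-snaR-A#1, at 104.9, 107.9 and 115.3 CPM with si-snaR-A#2 and at 92.0, 91.7 and 92.7 CPM with si-snaR-A#3. The si-snaR-A#1 libraries were far below scramble, the si-snaR-A#2 libraries above it, and the si-snaR-A#3 libraries overlapped it. SNAPC3 fell by 1.07 ± 0.04 (adjusted p = 2.8e-09) with si-snaR-A#1 and rose by 0.28 ± 0.04 (adjusted p = 0.00042) with si-snaR-A#2, while with si-snaR-A#3 the log2 fold change was 0.03 ± 0.04 (adjusted p = 0.66). The difference between si-snaR-A#1 and #2 was -1.34 ± 0.04 (adjusted p = 7.2e-10).

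SNAPC2 had the lowest count among the members tested, at 5.6, 5.5 and 6.6 CPM in scramble, 9.3, 8.9 and 7.9 CPM with si-snaR-A#1, 5.6, 5.5 and 5.2 CPM with si-snaR-A#2 and 6.2, 6.2 and 6.5 CPM with si-snaR-A#3. The si-snaR-A#1 libraries stood above all others. SNAPC2 rose by 0.56 ± 0.09 (adjusted p = 0.00018) with si-snaR-A#1, and its log2 fold changes of -0.12 and 0.09 with the other siRNAs were not called. SNAPC5 rose by 0.25 with si-snaR-A#1 (adjusted p = 0.0034). SNAPC1, a core subunit, rose by 0.26 with si-snaR-A#2 (adjusted p = 0.0068) and fell by 0.19 with si-snaR-A#3 (adjusted p = 0.032), the latter lost under the size factors of DESeq2's method, called RLE scaling here, and without scramble replicate 2 or 3 or any of the 3 si-snaR-A#3 libraries, with adjusted p up to 0.12. SNAPC4, the largest subunit, was not called against scramble.

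MAF1, the repressor, was at 38.8, 40.7 and 43.1 CPM in scramble, at 49.7, 47.9 and 45.2 CPM with si-snaR-A#1, at 51.1, 50.03 and 49.5 CPM with si-snaR-A#2 and at 47.2, 48.7 and 50.7 CPM with si-snaR-A#3. All 9 siRNA libraries were above all scramble libraries, by little in si-snaR-A#1 replicate 3. MAF1 rose by 0.22 ± 0.05 (adjusted p = 0.0023), 0.30 ± 0.05 (adjusted p = 0.00060) and 0.26 ± 0.05 (adjusted p = 0.0015), and no pair of siRNAs was called, with differences of -0.08, -0.04 and 0.04 (SE 0.05 each, adjusted p between 0.22 and 0.66). The activity of MAF1 is set by phosphorylation, which these data do not measure.

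Levels of different members were compared per kilobase of transcript in the scramble libraries. By the canonical transcript of GENCODE, POLR1D was highest at 150.0 ± 6.16 CPM per kilobase (SD, n = 3) and SNAPC2 lowest at 3.88 ± 0.387, but by all exons merged POLR1D was at 8.41 and in place 22 of 33. GTF3C6 was near the top either way, at 58.7 ± 1.95 and 50.2 CPM per kilobase. BRF1, BRF2, SNAPC2 and SNAPC4 were at or under 6.05 CPM per kilobase by both lengths. POLR3GL, at 24.4 ± 1.51 CPM per kilobase of canonical transcript, was above POLR3G, at 18.1 ± 0.559, although POLR3G had more counts, and by merged exons the levels were 15.8 and 14.8 CPM per kilobase. SNAPC4 and SNAPC2, at 4.02 ± 0.530 and 3.88 ± 0.387, did not differ beyond their spread.

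**Figure D5:**
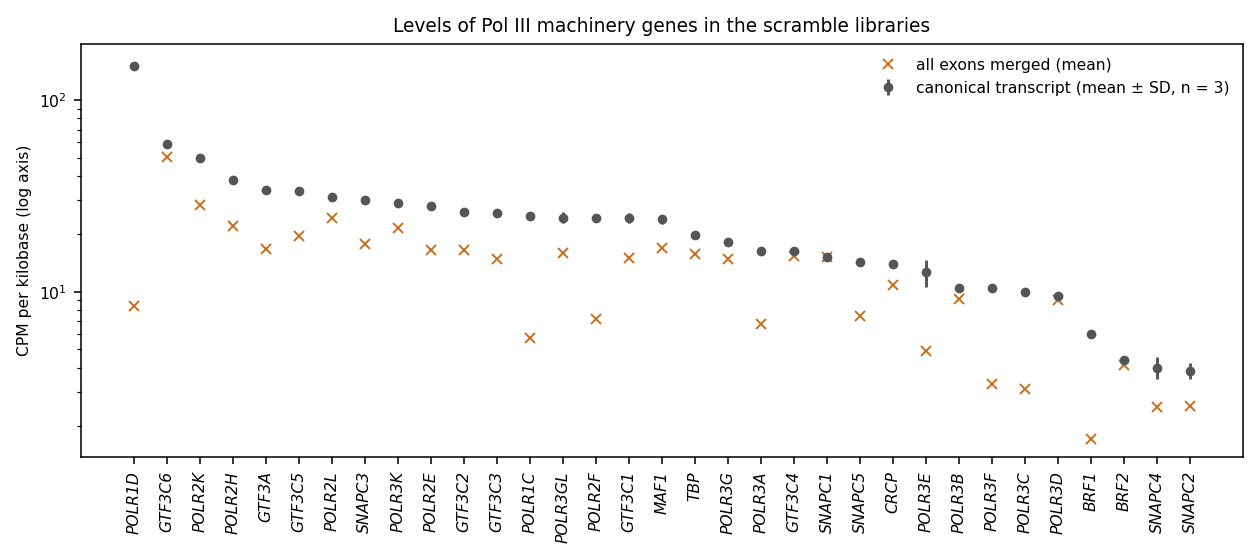
Level of each of the 33 members with counts in the scramble libraries, in CPM per kilobase on a log axis, in order of the level per kilobase of canonical transcript (circles, mean ± SD of 3). Crosses give the mean level per kilobase of all exons merged, which for POLR1D is 8.41 in place of 150.0.

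Other genes of the polymerases and of their RNAs were listed for comparison, and their counts stand beside 45.2%, 25.8% and 29.4% of all genes called with the 3 siRNAs in turn. Of 12 further genes of Pol III, most of them regulators, 8 were called with si-snaR-A#1, 4 higher and 4 lower, and 6 with each of the other siRNAs, all higher. MYC, which activates Pol III transcription through TFIIIB, was at 159.5, 165.7 and 170.7 CPM in scramble, at 346.2, 341.7 and 310.5 CPM with si-snaR-A#1, at 199.0, 193.0 and 190.0 CPM with si-snaR-A#2 and at 195.1, 204.4 and 216.7 CPM with si-snaR-A#3. Its libraries did not overlap scramble with any siRNA, and it rose by 1.01 ± 0.05, 0.23 ± 0.05 and 0.31 ± 0.05 (adjusted p = 1.2e-08, 0.0050 and 0.00053). CSNK2A2, a catalytic subunit of casein kinase 2, which phosphorylates TFIIIB, rose by 0.19 in the mean of the siRNAs (adjusted p = 0.00076).

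Of 12 subunits and factors of Pol I only, 10 were called with si-snaR-A#1, 7 higher and 3 lower, and 3 and 4 with si-snaR-A#2 and #3, all higher, near the shares of all genes. POLR1B, the second largest Pol I subunit, rose by 0.73 in the mean of the siRNAs (adjusted p = 1.2e-06), and UBTF, which activates rRNA genes, by 0.39 (adjusted p = 5.4e-07). RRN3 was listed at 0 in all si-snaR-A#1 libraries and in si-snaR-A#3 replicate 3, and at 27.8, 7.0 and 16.8 CPM in scramble, and no fold is given. Of 7 subunits of Pol II only, 4, 3 and 5 were called with the 3 siRNAs in turn. In the mean of the siRNAs POLR2D rose by 0.71 (adjusted p = 4.3e-08) and POLR2C by 0.40 (adjusted p = 1.4e-05), whereas POLR2J fell by 0.21 (adjusted p = 0.0011). Of 10 factors that assemble polymerases in the cytoplasm, 3 were called with each siRNA, below the share of all genes with si-snaR-A#1 and near it with the others. RUVBL2 rose by 0.30 in the mean of the siRNAs (adjusted p = 0.00010), and URI1 by 0.16 (adjusted p = 0.0045). The calls of URI1 with si-snaR-A#2 and #3 alone were lost under 4 and 13 of the alternative settings, with adjusted p up to 0.086 and 0.15.

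Of 33 proteins that bind or process Pol III RNAs 31 were tested, and 25 were called with si-snaR-A#1, 10 higher and 15 lower, beside 7 and 13 with si-snaR-A#2 and #3. SSB encodes La, which binds the 3′ end of new Pol III transcripts, snaR-A among them. SSB was at 419.3, 432.2 and 424.8 CPM in scramble, at 225.3, 230.9 and 237.9 CPM with si-snaR-A#1, at 348.3, 318.4 and 359.5 CPM with si-snaR-A#2 and at 415.7, 393.0 and 414.5 CPM with si-snaR-A#3. All siRNA libraries were below all scramble libraries, by little with si-snaR-A#3, and the log2 fold changes were -0.88 (adjusted p = 1.8e-08), -0.31 (adjusted p = 0.00031) and -0.06 (adjusted p = 0.36). POP1, a subunit of RNase P and RNase MRP, rose by 0.58 in the mean of the siRNAs (adjusted p = 4.0e-06), and LSM7, a subunit of the ring on U6 snRNA, by 0.38 (adjusted p = 1.0e-05).

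Of 20 Pol III transcripts looked for, 7 could be tested in these poly(A)+ libraries, and 2, 1 and 1 were called with the 3 siRNAs in turn, all lower. RN7SL1 and RN7SL2 varied widely within groups. RN7SL1 was at 48.1, 26.2 and 3.32 CPM in scramble, 2.41, 2.48 and 2.74 CPM with si-snaR-A#1, and 2.65, 43.0 and 50.6 CPM with si-snaR-A#2. RN7SL2 was at 67.6, 36.5 and 5.47 CPM in scramble, 4.43, 4.12 and 3.91 CPM with si-snaR-A#1, and 3.15, 57.6 and 78.1 CPM with si-snaR-A#2. In scramble replicate 3 both were close to the si-snaR-A#1 libraries, so no fall with si-snaR-A#1 is read from them. The cause of this spread within groups was not tested. BCYRN1, a neuronal RNA with an A-rich stretch, was at 286.3, 293.6 and 262.4 CPM in scramble, at 266.6, 268.6 and 262.0 CPM with si-snaR-A#1, at 188.5, 162.1 and 214.5 CPM with si-snaR-A#2 and at 191.9, 195.7 and 186.1 CPM with si-snaR-A#3. The libraries of si-snaR-A#2 and #3 were below all scramble libraries, by 0.58 (adjusted p = 0.00016) and 0.55 (adjusted p = 0.00018) on the log2 scale, and those of si-snaR-A#1 overlapped scramble (-0.08, adjusted p = 0.45).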

How the data were processed

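Libraries were made from rRNA-depleted, poly(A)+ enriched RNA with a stranded kit. The authors trimmed reads with Trim Galore, quantified them with Salmon on hg38, per the labels, and deposited estimated counts per Ensembl gene, not scaled between libraries. The annotation release and whether the counting used strand are not given in the sources used here. Estimated counts were rounded. Library totals of 120.4 to 180.1 M counts leave replicate spread, not counting error, as the limit for the members tested. Symbols and lengths came from GENCODE 44, promoters from RefSeq.

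Genes passing filterByExpr (21999) were fitted in edgeR 4.0.16 (R 4.3.3) with TMM scaling (factors 0.956 to 1.089) and 1 coefficient per group. The quasi-likelihood test was used with Benjamini-Hochberg adjustment, and calls were made at an adjusted p under 0.05. CPM use TMM library sizes. Paralogue ratios were compared by exact permutation tests over libraries. The fit was tested on simulated data. Alternatives were RLE and upper quartile scaling, no filter, a filter at a mean of 1 CPM, the edgeR exact test, DESeq2 1.42.0, fits of only the groups compared, a replicate block, and leaving out each library.

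The members and lists were chosen with earlier results of these data known. Values per library are given for POLR3G, POLR3GL, BRF1, BRF2, MAF1, members called the same way with every siRNA, and the 5 members with the largest change called with each siRNA. Of the other lists, up to 3 genes with the largest change in the mean of the siRNAs among those called are named, with SSB. Some genes that this rule names are not reported here. POLR2A and LSM2, listed near 0, and RN7SL1 and RN7SL2 were named after their values were seen. The promoters shown and the motifs searched were also chosen then.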

Additional observations from a re-analysis of the deposited data

Results flagged for a closer look

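Of the members, 6 were called in opposite directions against scramble with 2 of the siRNAs, which is 18.2% of those tested beside 8.41% of all genes, and the siRNAs concerned also differed when tested against each other in the same fit. POLR3G was 0.94 lower on the log2 scale with si-snaR-A#1 than with si-snaR-A#2 (difference -0.94) and differed by -1.005 with si-snaR-A#1 against si-snaR-A#3. POLR3C went the other way, 0.50 higher with si-snaR-A#1 than with si-snaR-A#2 and 0.42 higher than with si-snaR-A#3. SNAPC3 differed by -1.34 between si-snaR-A#1 and #2, and POLR3B by -0.73 between si-snaR-A#1 and #3. POLR1C was 0.39 higher with si-snaR-A#1 than with si-snaR-A#2. SNAPC1 differed between the other pair and was 0.46 higher with si-snaR-A#2 than with si-snaR-A#3. All 3 siRNAs were set against the same scramble libraries. These members were picked out because of the pattern, so the count of 6 is a description. The share of all genes beside it includes genes at lower counts than any member tested.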

How the results depend on the processing

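The counts of members called stayed within 1.5 times the reported count under every alternative run. The edgeR exact test and the fits of only the groups compared were not run for the mean of the siRNAs. Of 56 called values of members against scramble or in the mean of the siRNAs, 44 kept call and direction throughout, 12 lost the call under at least 1 alternative, as given beside each, and 0 reversed. In the mean of the siRNAs POLR2F lost its call under upper quartile scaling, with no filter, with the block and without scramble replicate 1 or si-snaR-A#2 replicate 3 (adjusted p up to 0.20), and POLR2E without scramble replicate 1 (0.056). Without 1 library, the difference in the POLR3G to POLR3GL log2 ratio ran from -0.065 to 0.026 and changed sign without any 1 of the si-snaR-A#1 libraries. The difference in the BRF1 to BRF2 ratio ran from -0.21 to -0.14, and its p rose above 0.05 without any scramble library, without si-snaR-A#1 replicate 1 or without any si-snaR-A#2 library, to at most 0.13. Values near 0 changed sign without being called. BRF2 with si-snaR-A#2 was -0.031 under upper quartile scaling and ran from -0.016 to 0.069 without 1 library, BRF2 in the mean of the siRNAs was -0.026 under upper quartile scaling and ran from -0.027 to 0.048, and SNAPC3 with si-snaR-A#3 was -0.025 under upper quartile scaling. The causes were not tested.

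Replicate numbers did not pair the samples. Deviations of libraries with the same number correlated between -0.28 and 0.20, over 0.1 in 4 of 18 pairs, and 4 of 12 libraries correlated best with their own number. With a replicate block, 2 of the 56 calls were lost, and the BRF1 to BRF2 difference was -0.18 (exact permutation within numbers, p = 0.0625). Exons of 24 members overlap another gene, in 4 overlaps on the same strand. Knockdown depth, protein levels and Pol III output were not analysed here.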
